A study of Rattus norvegicus with 4 samples.

Results

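The M-band genes and giant sarcomere genes are 7 genes chosen by symbol, Myom1, Myom2, Myom3, Ttn, Obsl1, Speg and Trim63, and 6 of them had a row among the 16290 genes of the deposited table. Ttn is not analysed here. The RNA came from heart muscle cells of newborn rats (neonatal cardiomyocytes, postnatal day 3), kept in culture in medium with horse serum and sodium pyruvate, after delivery of an adenovirus vector that encoded Pdk3 (2 libraries, Pdk3 1 and Pdk3 2) or mock (2 libraries, Mock 1 and Mock 2). Pdk3 is a kinase that inhibits the pyruvate dehydrogenase complex, and both groups received a viral vector. Whether the 2 libraries of a group are separate cultures or animals is not in the labels, so each p-value rests on a spread that may be technical. The genes were chosen with earlier results of this same contrast in view, so their own differences between Pdk3 and Mock are given as a description. Intervals and counts past a threshold are printed for them, but these are not read as tests.

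The M-band is the line at the centre of the sarcomere, where myosin filaments of opposite direction meet and are cross-linked. Myomesins are the linkers: they bind myosin and the end of titin, the giant protein that spans from the Z-disc to the M-band and acts as a spring and scaffold. Obsl1 encodes a cytoskeletal linker that binds titin and myomesin at the same place. Speg is a muscle kinase, and Trim63 (MuRF1) is a ubiquitin ligase that binds titin near the M-band and marks muscle proteins for degradation.

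Promoter windows were read for the genes the results turn on, Myom3 as the gene with the widest gap between groups, its paralogue Myom1, and Trim63, whose regulators are described further on. Each window holds 250 bases before and 50 bases after an annotated start, from RefSeq (build GRCr8), printed 5′ to 3′ in the direction of transcription. Capitals mark matches to the MEF2 consensus, the FOXO motif GTAAACA or the palindromic consensus of the glucocorticoid receptor, searched on both strands.
Myom3, chr5:153276056-153276355, plus strand: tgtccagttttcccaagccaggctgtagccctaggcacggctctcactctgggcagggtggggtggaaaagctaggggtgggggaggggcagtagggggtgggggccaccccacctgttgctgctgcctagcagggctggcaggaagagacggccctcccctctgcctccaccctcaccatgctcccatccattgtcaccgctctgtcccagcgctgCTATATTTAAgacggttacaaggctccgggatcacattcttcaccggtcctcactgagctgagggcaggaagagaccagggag
Myom1, chr9:118366896-118367195, plus strand: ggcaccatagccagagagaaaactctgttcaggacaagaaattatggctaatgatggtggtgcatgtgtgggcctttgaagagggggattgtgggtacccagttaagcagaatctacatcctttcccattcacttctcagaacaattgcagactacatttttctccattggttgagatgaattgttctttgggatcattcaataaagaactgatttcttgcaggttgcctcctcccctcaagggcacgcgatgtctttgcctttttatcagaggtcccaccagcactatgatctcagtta
Trim63, chr5:151816986-151817285, plus strand: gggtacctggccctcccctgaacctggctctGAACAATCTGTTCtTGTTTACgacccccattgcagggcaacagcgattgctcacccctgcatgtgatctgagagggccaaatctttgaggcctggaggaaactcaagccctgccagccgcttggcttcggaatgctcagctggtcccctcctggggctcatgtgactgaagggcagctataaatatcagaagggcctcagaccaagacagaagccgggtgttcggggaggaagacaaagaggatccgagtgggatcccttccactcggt

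The Myom3 window held a MEF2 match that began 33 bases before the start, and the Myom1 window held 0 matches to these 3 motifs. One of the windows of Speg held a MEF2 match as well, 41 bases before the start. The Trim63 window held a glucocorticoid receptor match 219 bases before the start and a FOXO match on the reverse strand 205 bases before it, with 1 base between the matches. Over all 33469 windows in the RefSeq table, 3.29% held the MEF2 consensus, 3.78% the FOXO motif and 0.439% the glucocorticoid receptor motif. The E-box CANNTG was present in the windows of Myom1, Myom3, Obsl1, Speg and Trim63 and in 72.1% of all windows. These are matches of letters, and a window without one says only that these letters are not in it. Of the 6 genes with a row, 5 had a window.

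Values are normalised read counts, which the authors scaled between libraries and rounded. They summed to 4470251 to 4476649 in the Pdk3 libraries and to 4448199 to 4454567 in the Mock libraries. The delivered gene itself, Pdk3, had 1218 and 1177 in the Pdk3 libraries and 396 and 411 in the Mock libraries, in which vector and endogenous transcripts are counted together. All 8 cardiomyocyte markers examined were present, with summed values of 21449 to 21790 in Pdk3 and 20905 to 21120 in Mock. Of 8 skeletal muscle markers, Myf6 and Myh4 were measured (the other 6 are not analysed here), and they summed to 6 in each Pdk3 library and to 8 and 11 in the Mock libraries. The values are not per length: the 25 highest genes had a median genomic span of 94.9 kb, against 21.7 kb over all genes tested, so levels are compared here within a gene and not between genes. How duplicate reads were treated is not given in the sources used here.

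Myom3 (ENSRNOG00000032994, chromosome 5, 154112076 to 154159601, plus strand, rn6), a myomesin known from intermediate-speed fibres of mouse skeletal muscle, had normalised counts of 49 and 54 in the Pdk3 libraries, against 102 and 107 in the Mock libraries. Both Pdk3 libraries lay below both Mock libraries, by about the same amount. The mean was 51.5 ± 3.5 in Pdk3 and 104.5 ± 3.5 in Mock (SD, n = 2 each), a 2.03-fold lower value and a log2 fold change of -1.01 ± 0.12 (SE; 95% interval -1.28 to -0.74). Multiplied back by scaling factors read from the steps of the values, these were about 45 and 52 reads in Pdk3 and 105 and 113 reads in Mock, so Myom3 is the member with the least depth behind it. Among the 12838 genes tested, 63 had a log2 fold change at or below that of Myom3, and among the 10583 of these genes with a mean of at least 50, 18 did.

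Myom1 (ENSRNOG00000057701, chromosome 9, 119353840 to 119468715, plus strand), which encodes the myomesin of all striated muscle, had 2706 and 2763 in Pdk3 and 2656 and 2684 in Mock. The groups did not overlap, but their means differed by 2.42% and the log2 fold change was 0.03 (95% interval -0.01 to 0.08). When the libraries were rescaled so that ribosomal protein genes were level between groups at their median, an alternative scaling, its sign turned (-0.05). Splice forms of Myom1, such as the one known from the embryonic heart, are not separated in a value per gene.

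Myom2 (ENSRNOG00000011754, chromosome 16, 79587640 to 79671719, minus strand), which encodes M-protein, had 1648 and 1608 in Pdk3 and 1647 and 1671 in Mock. The groups overlapped, with means of 1628.0 ± 28.3 in Pdk3 and 1659.0 ± 17.0 in Mock. Its log2 fold change was -0.03 (95% interval -0.08 to 0.02).

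**Figure D1:**
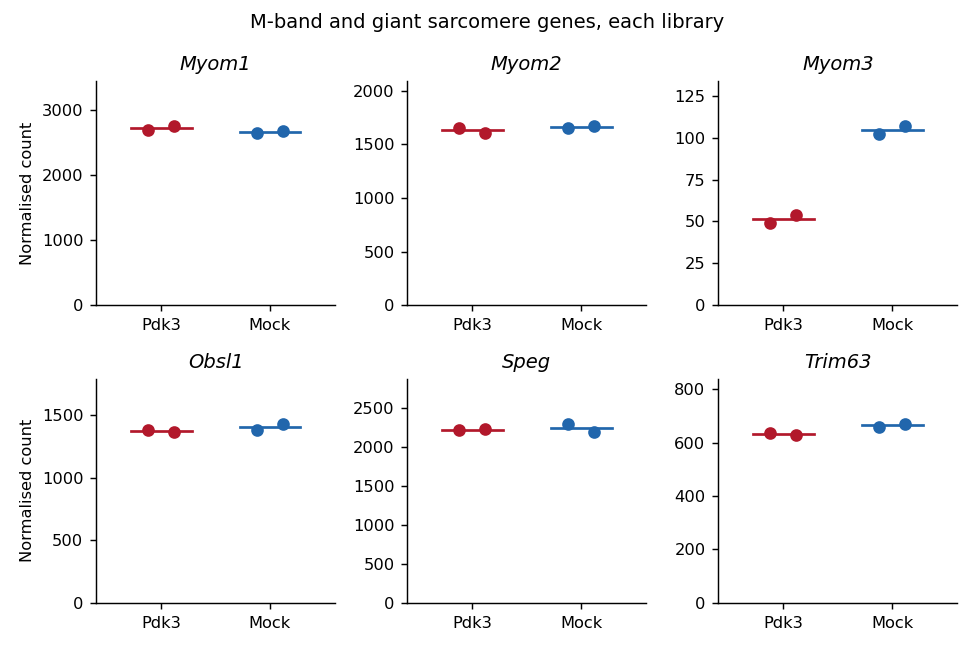
Normalised counts of the 6 genes in each library, with Pdk3 libraries in red and Mock libraries in blue. Points are libraries, lines are group means over 2 libraries, and each vertical axis starts at 0. For Myom3 the Pdk3 points lie at 49 and 54 and the Mock points at 102 and 107, while in the other 5 panels the group means differ by 1.16% to 5.04%.

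Within each library, the ratio of one gene to another does not depend on the scaling between libraries. Myom3 stood at 1.81% and 1.95% of the Myom1 value in the Pdk3 libraries, against 3.84% and 3.99% in the Mock libraries. Against Myom2 it stood at 2.97% and 3.36% in Pdk3 and at 6.19% and 6.4% in Mock. The ratio of Myom2 to Myom1 was 60.9% and 58.2% in Pdk3 and 62.0% and 62.3% in Mock. The wide gaps between groups are in the ratios that hold Myom3. Whether the handling of reads understates differences of genes with high values, such as Myom1 and Myom2, was not tested. These ratios are of values per gene and do not give the make-up of the family, since transcript length enters each of them.

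Obsl1 (ENSRNOG00000015346, chromosome 9, 82680384 to 82699551, minus strand), the cytoskeletal linker, had 1384 and 1362 in Pdk3 and 1380 and 1432 in Mock. The groups overlapped, and the log2 fold change was -0.03 (95% interval -0.09 to 0.02).

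Speg (ENSRNOG00000019850, chromosome 9, 82571269 to 82628709, plus strand), the muscle kinase, had 2212 and 2224 in Pdk3 and 2295 and 2193 in Mock. The Mock libraries spanned the Pdk3 ones, and the log2 fold change was -0.02 (95% interval -0.07 to 0.04). The RefSeq table gives Speg 2 promoter windows, and transcripts of its several starts are summed in the value per gene.

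Trim63 (ENSRNOG00000016543, chromosome 5, 152533349 to 152547179, plus strand), the ubiquitin ligase MuRF1, had 635 and 627 in Pdk3 and 658 and 671 in Mock. The Pdk3 libraries were both below the Mock libraries, by a small margin. Means were 631.0 ± 5.7 in Pdk3 and 664.5 ± 9.2 in Mock, with a log2 fold change of -0.07 ± 0.03 (95% interval -0.15 to -0.00372).

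All 6 genes passed the filter on low values (at least 10 in at least 2 libraries). In the limma fit over all genes (Benjamini-Hochberg adjustment, threshold 0.05) 1 of the 6 was past the threshold, Myom3, which was lower, against 22.9% of all genes tested (11.7% higher and 11.3% lower). With p held at counting noise or above, meaning that p could not fall below that of a binomial test on the reads, the same 1 of 6 passed, against 8.39% of all genes higher and 7.45% lower (15.8% in all). With ribosomal protein genes set level, 5 of the 6 were lower past the threshold (all but Myom1) and 0 higher, against 27.3% of all genes lower and 7.19% higher (34.5% in all). The groups did not overlap for 3 of the 6, against 61.0% of all genes tested: 1 of 6 was higher, against 29.9%, and 2 of 6 were lower, against 31.1%. Because the choice of genes used this contrast, nothing is read from these counts. The median log2 fold change of the 6 was -0.03, beside -0.01 over all genes tested.

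**Figure D2:**
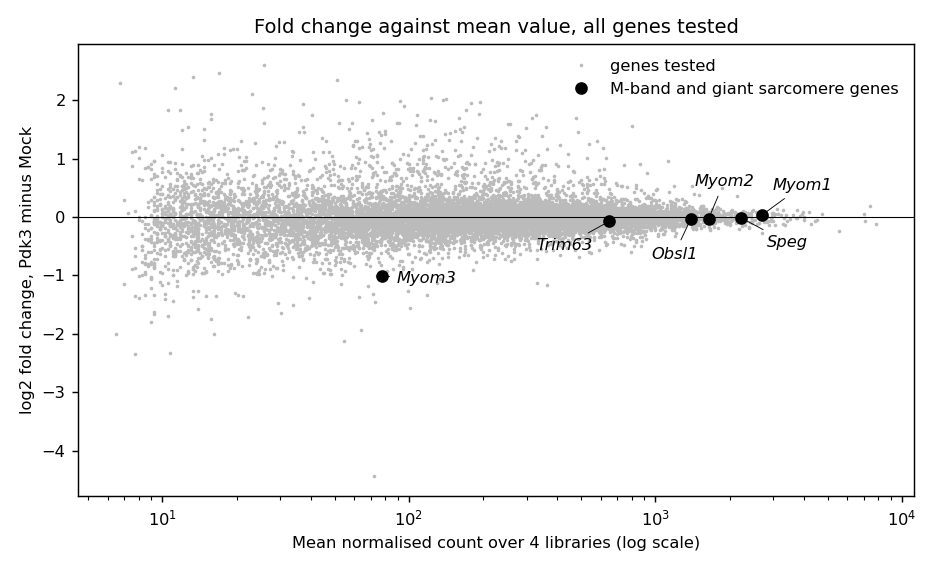
Log2 fold change of Pdk3 minus Mock (vertical axis) against the mean normalised count over 4 libraries (horizontal log axis) for the 12838 genes tested in grey, with the 6 genes in black. Myom3 lies at -1.01 below the main cloud, and the other 5 lie between -0.07 and 0.03 at higher means.

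Myom3 was set beside markers of other cells in the same libraries. Macrophage markers were lower for 4 of 6 genes past the threshold, with sums of 1021 to 1060 in Pdk3 and 1232 to 1259 in Mock. Smooth muscle markers were higher for 3 of 5 genes, with sums of 3393 to 3396 in Pdk3 and 2918 to 2963 in Mock. Of 5 endothelial markers 1 was lower, Cdh5, with list sums of 1036 to 1064 in Pdk3 and 1071 to 1107 in Mock. Of 7 fibroblast markers 1 was lower, Dcn, with sums of 5265 to 5416 in Pdk3 and 5416 to 5484 in Mock. Of the cardiomyocyte markers 4 of 8 were higher and 1 lower. Beside these marker counts, 11.7% of all genes tested were higher and 11.3% lower. With ribosomal protein genes set level, 5 of 7 fibroblast markers, 5 of 6 macrophage markers and 2 of 5 endothelial markers were lower. On that scale 3 of 5 smooth muscle markers were higher, and of the cardiomyocyte markers 0 were higher and 1 was lower. The shares of all genes tested there were 7.19% higher and 27.3% lower. No marker with a row was at 0 in all 4 libraries, and Myf6, a myogenic factor of skeletal muscle, was listed at 1 and 0 in Pdk3 and at 3 and 2 in Mock. The part of these cell types in the Myom3 values was not tested, and in bulk RNA fewer cells of a type and less RNA per cell cannot be told apart.

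By Euclidean distance between gene-centred log2 profiles over the 4 libraries, the 5 genes most like Myom3 were Abca4, Lrrc2, Klhdc8a, Abca7 and Prr36, at distances of 0.12 to 0.16. The search was limited to genes tested with a mean of at least 50 and left out symbols that are clone or locus identifiers. Abca4, a transporter of retinoids in photoreceptors, had 48 and 50 in Pdk3 and 103 and 97 in Mock. Lrrc2, a leucine-rich repeat protein, had 197 and 216 in Pdk3 and 439 and 468 in Mock. Abca7, a lipid transporter, had 215 and 233 in Pdk3 and 492 and 508 in Mock. With 2 groups of 2 libraries, likeness of this kind mostly ranks genes by an equal log2 fold change.

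The genes also share positions that their choice did not use. Speg and Obsl1 lie on chromosome 9 with 51.7 kb between them, and Trim63 and Myom3 lie on chromosome 5 with 1.56 Mb between them. No other row of the table overlaps any of the 6. The stretch from 100 kb before Speg to 100 kb after Obsl1, examined after values had been seen, holds 9 other rows. Des, which encodes the muscle intermediate filament desmin and lies just before Speg, rose to 1817 and 1754 in Pdk3, against 1669 and 1656 in Mock (log2 fold change 0.10, limma adjusted p = 0.0166). Between Speg and Obsl1, Gmppa fell to 202 and 189 in Pdk3, against 246 and 249 in Mock (adjusted p = 0.00698). Tmem198, also between them, had low values of 5 and 3 in Pdk3, against 13 and 16 in Mock (log2 fold change -1.65, limma adjusted p = 0.0157). Of the 8 neighbours tested, 2 were higher and 4 lower past the limma threshold, beside 11.7% of all genes tested higher and 11.3% lower. With p held at counting noise or above, the calls of Inha (higher, adjusted p = 0.0921) and Slc4a3 (lower, adjusted p = 0.189) ended. The shares of all genes tested there were 8.39% higher and 7.45% lower.

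The next comparisons take the known partners and regulators of these proteins, 60 tested genes in 7 lists that leave the 6 out. Of the 60, 10 rose and 16 fell, beside 11.7% of all genes tested that were higher and 11.3% that were lower. With ribosomal protein genes set level, which lowers nearly all genes alike (median gene -0.09), 3 rose and 25 fell. On that scale 7.19% of all genes tested were higher and 27.3% lower. When each library was omitted in turn, which leaves 1 residual degree of freedom, 0 of the 60 passed in limma and 22 to 27 had an unadjusted p under 0.05, a loss that Pdk3 itself shared (adjusted p = 0.149 to 0.173) and that therefore says nothing of single genes.

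On a list of 11 M-band genes and titin partners, 2 rose and 3 fell, beside 11.7% of all genes tested higher and 11.3% lower. With ribosomal protein genes set level 2 were higher and 4 lower, beside 7.19% and 27.3%. Their median log2 fold change was 0.04, beside -0.01 over all genes tested. Sqstm1 and Nbr1, autophagy receptors that dock at the titin kinase domain, fell by 0.18 (limma adjusted p = 0.00284) and by 0.10 (adjusted p = 0.0159) on the log2 scale. Cmya5, which encodes the large muscle protein myospryn, fell by 0.11 on the log2 scale to 2380 and 2352 in Pdk3, against 2565 and 2536 in Mock. Fhl1, a LIM protein that binds titin, rose to 1659 and 1649 in Pdk3, against 1450 and 1467 in Mock (log2 fold change 0.18, adjusted p = 0.000762). Ank1, whose small muscle form lies in the sarcoplasmic reticulum, rose to 354 and 349 in Pdk3, against 283 and 309 in Mock (log2 fold change 0.25, adjusted p = 0.016). With p held at counting noise or above, the call of Nbr1 ended (adjusted p = 0.0932).

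Rows whose ontology terms in the deposited table include the M band were counted as well, a list added after values had been seen. It holds 13 tested genes, 3 of them Myom2, Myom3 and Trim63. Of the other 10, 3 rose and 0 fell by limma, with a median log2 fold change of 0.06, beside 11.7% of all genes that were higher and 11.3% lower. With p held at counting noise 2 were higher and 0 lower, beside 8.39% and 7.45% of all genes tested. With ribosomal protein genes set level 1 was higher and 2 lower, beside 7.19% and 27.3%.

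Of 18 tested genes on a list of titin partners, mainly at the Z-disc and along the I-band, 5 rose and 3 fell, with a median of 0.05. Xirp2, an actin-binding repeat protein, had the largest rise on this list (log2 fold change 0.19, adjusted p = 0.00042). Actn2, the Z-disc actinin that anchors titin, rose to 2399 and 2367 in Pdk3, against 2257 and 2211 in Mock (log2 fold change 0.09, adjusted p = 0.0112). Mypn, which encodes myopalladin, fell to 1181 and 1175 in Pdk3, against 1308 and 1323 in Mock (log2 fold change -0.16, adjusted p = 0.0022). Flnc, the muscle filamin, fell to 4106 and 4103 in Pdk3, against 4476 and 4435 in Mock (log2 fold change -0.12, adjusted p = 0.000867). Bag3, a chaperone partner that clears damaged filamin, fell by 0.12 on the log2 scale (adjusted p = 0.0202). With ribosomal protein genes set level the balance on this list turned, with 1 gene higher, Xirp2, and 5 lower. The shares of all genes tested turned likewise, to 7.19% higher and 27.3% lower. The calls of Actn2, Des and Myoz2 ended there, Xirp1 turned sign (log2 fold change 0.07, and -0.015 there), and Nebl and Ldb3 were lower (log2 fold changes of -0.09 and -0.05, against -0.0034 and 0.03 on the deposited scale). With p held at counting noise or above, the calls of Xirp1 and Myoz2 ended (adjusted p = 0.085 and 0.21).

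Ttn splicing is set by RNA-binding proteins, and 0 of 6 such genes passed limma. At an unadjusted p under 0.05 there was 1, Mbnl1 (log2 fold change 0.18, adjusted p = 0.057). Rbm20, the main splicing repressor of Ttn, had 2114 and 2112 in Pdk3 and 2149 and 2114 in Mock. Its groups met at a shared value, and its log2 fold change was -0.01 (adjusted p = 0.655). With ribosomal protein genes set level it was -0.10 and past the threshold.

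Obsl1 also belongs to the 3M complex, a cullin ligase with Cul7 and Ccdc8. Cul7 fell to 298 and 307 in Pdk3, against 362 and 347 in Mock (log2 fold change -0.23, adjusted p = 0.0127). Ccdc8 and the Cul7 partner Fbxw8 did not pass, with log2 fold changes of -0.16 and -0.03. With ribosomal protein genes set level, Ccdc8 was lower as well (log2 fold change -0.24, limma adjusted p = 0.0149). On that scale 2 of these 3 genes were lower and 0 higher, beside 27.3% and 7.19% of all genes tested. Among 5 partners and substrates of Speg, Mtm1, a lipid phosphatase that Speg binds, fell to 297 and 268 in Pdk3, against 354 and 367 in Mock (log2 fold change -0.35, adjusted p = 0.00543). Ryr2, the calcium release channel, fell by 0.06 on the log2 scale (adjusted p = 0.00613). Jph2, which ties the sarcoplasmic reticulum to the cell membrane, rose by limma (log2 fold change 0.11, adjusted p = 0.0374), a call that ended with p held at counting noise (adjusted p = 0.115) and with ribosomal protein genes set level (log2 fold change 0.03, adjusted p = 0.615). Atp2a2, the calcium pump that Speg phosphorylates, and the dynamin gene Dnm2 did not pass, with log2 fold changes of -0.01 and 0.07. With ribosomal protein genes set level, Atp2a2 was lower (log2 fold change -0.10, limma adjusted p = 0.000251). On that scale 3 of the 5 Speg partners and substrates were lower and 0 higher, beside 27.3% and 7.19% of all genes tested.

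**Figure D3:**
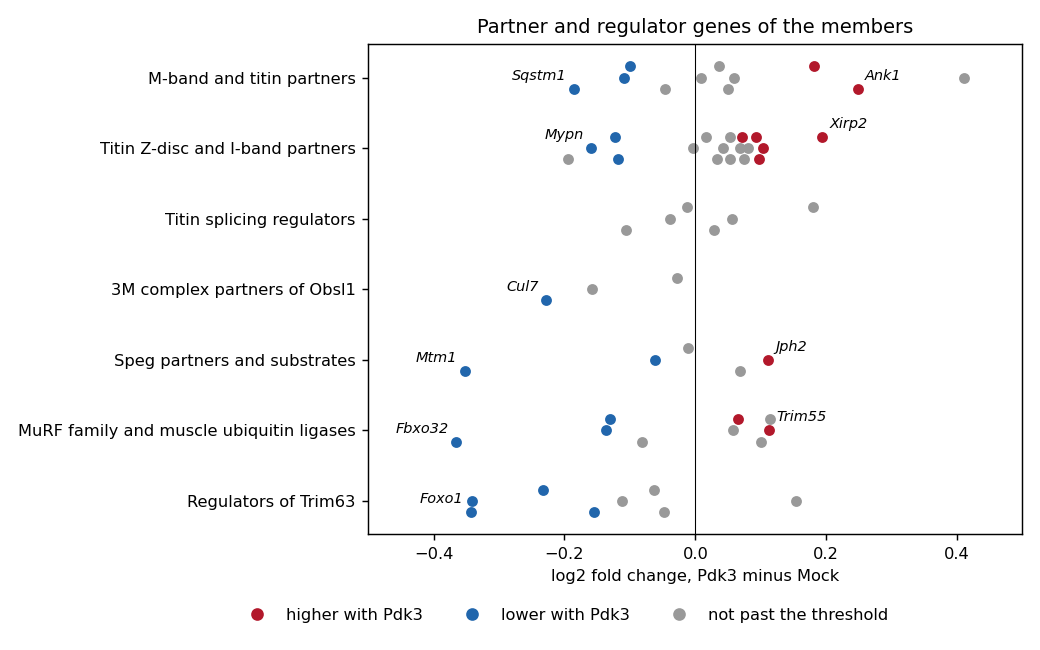
Log2 fold changes (Pdk3 minus Mock, horizontal axis) of 60 partner and regulator genes, 1 point per gene and 1 row per list, in red where higher and blue where lower past the limma threshold and in grey otherwise. The lowest and highest called gene of each list is named. Fbxo32 at -0.37, Mtm1 at -0.35 and Foxo1 at -0.34 lie farthest to the left.

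Trim63 was then set beside the ligases of its kind. Of 9 muscle ubiquitin ligases 2 rose and 3 fell, beside 11.7% of all genes tested higher and 11.3% lower. With ribosomal protein genes set level 0 were higher and 4 lower, beside 7.19% and 27.3%. Fbxo32 (atrogin-1), the ligase that usually stands beside Trim63 as a marker of muscle atrophy, fell to 594 and 585 in Pdk3, against 780 and 740 in Mock, or -0.37 ± 0.04 as log2 fold change (adjusted p = 0.000416 by limma). Trim55 (MuRF2) rose to 1366 and 1384 in Pdk3, against 1269 and 1273 in Mock (log2 fold change 0.11, adjusted p = 0.0086). Trim54 (MuRF3) fell to 684 and 690 in Pdk3, against 759 and 746 in Mock (log2 fold change -0.13, adjusted p = 0.0155). The MuRF family thus held 1 gene that rose, 1 that fell and Trim63 between them. The call of Trim55 ended with ribosomal protein genes set level (log2 fold change 0.03), and that of Trim54 with p held at counting noise (adjusted p = 0.0817), as did those of Mdm2 (0.0916) and Nedd4 (0.103). Nedd4 had a log2 fold change of 0.06, and of -0.021 with ribosomal protein genes set level.

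The ratio of Trim63 to Fbxo32 was 107% in both Pdk3 libraries, against 84.4% and 90.7% in the Mock libraries. Relative to Trim55, Trim63 stood at 46.5% and 45.3% in Pdk3 and at 51.9% and 52.7% in Mock. Relative to Trim54 it stood at 92.8% and 90.9% in Pdk3 and at 86.7% and 89.9% in Mock. Each of these 3 ratios kept the groups apart, the first by the widest margin and the last only by 90.9% against 89.9%. Single genes kept the groups apart in 61.0% of all genes tested, so nothing is read from this count.

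**Figure D4:**
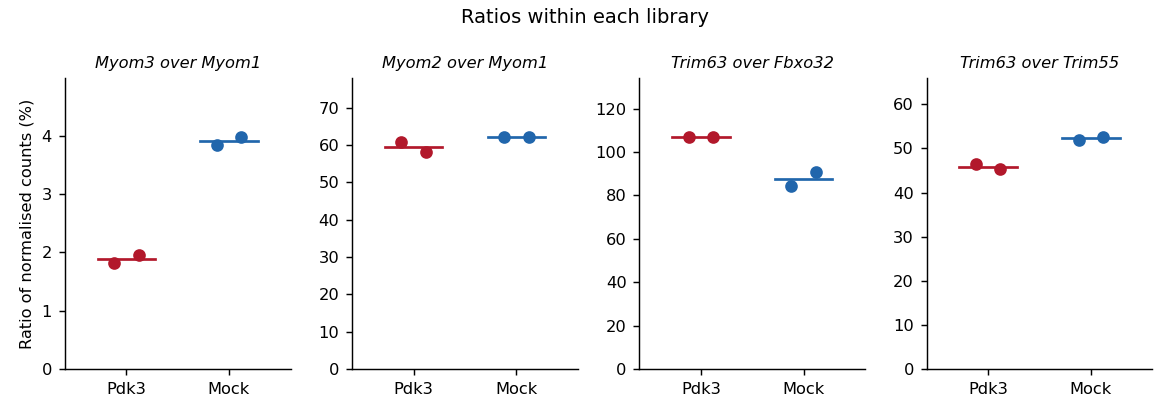
Ratios of normalised counts between 2 genes within each library, in percent, with Pdk3 libraries in red and Mock libraries in blue, group means as lines and each axis starting at 0. Myom3 over Myom1 lies at 1.81% and 1.95% in Pdk3 against 3.84% and 3.99% in Mock, while Myom2 over Myom1 lies between 58.2% and 62.3% in all 4 libraries.

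Of 8 tested regulators of Trim63, 4 fell and 0 rose by limma, with a median log2 fold change of -0.13. Over all genes tested, 11.3% were lower and 11.7% higher. The FOXO factors, which bind the promoters of Trim63 and Fbxo32 in atrophying muscle, were lower for 3 of 3 genes. Foxo4 fell to 514 and 526 in Pdk3, against 661 and 657 in Mock (log2 fold change -0.34, adjusted p = 0.000369). Foxo1 fell to 157 in both Pdk3 libraries, against 195 and 204 in the Mock libraries (log2 fold change -0.34, adjusted p = 0.00955). Foxo3 fell to 360 and 356 in Pdk3, against 443 and 400 in Mock (log2 fold change -0.23, adjusted p = 0.0202). Nfkb1 fell by 0.16 on the log2 scale (adjusted p = 0.0147), while Rela, its partner in NF-kB, had a log2 fold change of -0.06 that did not pass. With ribosomal protein genes set level, Rela was lower (log2 fold change -0.15, limma adjusted p = 0.0166). On that scale 5 of the 8 regulators were lower and 0 higher, beside 27.3% and 7.19% of all genes tested. The calls of Foxo3 and Nfkb1 ended without a filter on low values and also without an intensity trend. Those of Foxo1 and Foxo4 held in both settings. Klf15, a target and partner of the glucocorticoid receptor, had 105 and 100 in Pdk3 and 92 in each Mock library (log2 fold change 0.15, adjusted p = 0.286). The values are of RNA and say nothing of where these factors were in the cell or whether they were bound at the motifs in the Trim63 window.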

How the data were processed

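RNA was measured in 4 libraries, 2 per group. Per the submitters' processing notes the tools were DESeq2 1.26.0, featureCounts 1.6.5 (Subread), STAR 2.6.1d, Trimmomatic 0.39 and FastQC, with rn6 as the build and no settings. The deposited values are used as a score: they are not raw, since the authors scaled the read counts of each gene across libraries and then rounded them. The sources used here give neither the strand setting nor the handling of duplicates. Scaling factors of 0.9246 to 1.0567, read from skipped and doubled whole numbers, give about 4139110 to 4707141 reads per library.

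Values were tested as log2(value + 1) with limma 3.58.1 in R 4.3.3 (intensity trend, group as the single term, two-sided, Benjamini-Hochberg over 12838 genes with at least 10 in at least 2 libraries, threshold 0.05), which understates changes of genes with low values. There were 2 residual degrees of freedom, and the script was tested on simulated data. Errors cover these libraries only. The genes and lists were chosen with earlier results of these data known. The text names the 6 genes, Pdk3, up to 4 called genes of a list's majority direction and 2 of the other by smallest p (or the 2 highest where none passed) and the 5 genes most like Myom3. Neighbours of Speg and Obsl1, the M band term and other list genes named for context were chosen after their values were seen. One further gene was left out of the lists and is not reported here. Counting noise was taken from an exact binomial test of summed reads.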

Additional observations from a re-analysis of the deposited data

How the results depend on the processing

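With the replicate number as a block, 2672 genes were past the threshold over all genes tested, against 2945 without it, and 26 of the 60 list genes, as without it. Of the genes named other than the 6 (Tmem198, Inha and Slc4a3 were not followed here), the block ended the calls of Nedd4 (adjusted p = 0.0507) and Myoz2 (0.0639). Same-numbered libraries deviated together only weakly (correlation 0.0384 across genes), so the numbers are not taken to pair the libraries. Leaving out each library in turn, limma found 0 genes and 0 list genes past the threshold with 1 residual degree of freedom, where the lone library is assumed to vary like the other group, while 2916 to 3347 genes and 22 to 27 list genes had an unadjusted p under 0.05. Without a filter on low values 1276 genes and 13 list genes passed, and without an intensity trend 851 and 3. Of the calls of named genes other than the 6, 18 ended without the filter and 33 without the trend. Actn2, Ank1, Bag3, Cul7, Foxo3 and Mtm1 were among those that ended in both. With ribosomal protein genes set level 4424 genes passed, 923 higher and 3501 lower (20.9% higher, against 50.8%). Of the named genes other than the 6 with a call on either scale, Nedd4 (-0.021), Xirp1 (-0.015) and Ldb3 (-0.053) turned sign. Dnm2 (-0.018) turned sign without a call on either scale. TMM scaling, a minimum of 50, pseudocounts of 0.5 and 8 and a floor at counting noise kept both counts within 1.5 times. Over the 13 alternatives the log2 fold change lay between -1.09 and -0.92 for Myom3, -0.16 and -0.06 for Trim63, -0.12 and -0.01 for Obsl1, -0.11 and -0.01 for Myom2, -0.10 and 0.02 for Speg and -0.05 and 0.05 for Myom1. Myom3 rests on 45 to 113 reads per library, the other 5 genes on 587 or more.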
